A study of Danio rerio with 2 samples.

Results

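The peak-poor stretches of the zebrafish genome at 4 hpf (hours post fertilization) are 27 bins of 5 Mb that were chosen by the number of ATAC-seq peak summits they hold, with 190 or fewer as the limit. They were taken from 242 full bins on chromosomes 1 to 25, chromosome 4 and the incomplete last bin of each chromosome left out, and their members are the 4502 peaks inside them, of 73691 in all full bins and 84715 in the whole list. ATAC-seq marks accessible DNA with a transposase that inserts sequencing adapters, and here it was run on untreated wild-type Tubingen (WT Tubingen) whole embryos at 4 hpf. The only group consists of 2 biological replicates, which the authors pooled into 1 peak list, so a peak has no value per replicate, no spread between replicates can be given, and no test across samples was possible. All differences below are descriptions of this 1 list, and the intervals printed cover counting error only. Positions refer to Zv10, the assembly used by the authors.

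Most of the genome is wrapped on nucleosomes and closed to the transposase, while promoters and enhancers that bind transcription factors are open and appear as peaks. In zebrafish, 4 hpf falls shortly after the onset of zygotic transcription, when such sites are being opened by early factors. Long stretches with few accessible sites are known from many genomes and often contain few genes, although some hold single developmental genes with distant enhancers. Gene content was not analysed here, because no gene annotation of Zv10 was used, and the stretches are therefore given by position. Because whole embryos were used, a site open in few cells and a site weakly open in many cells cannot be told apart.

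The 27 bins held 33.3 peaks per Mb over 135 Mb, against 64.4 peaks per Mb over the 1075 Mb of the other 215 bins. They made up 11.2% of the bins and 6.11% of the peaks. Counts per bin ran from 117 to 189 with a median of 175, whereas the other bins ran from 191 to 603 with a median of 313. These counts were fixed by the rule and are no finding. Bins just inside the limit held 187, 189 and 189 summits, and those just outside held 191, 192 and 194, so the limit cuts through a continuous range.

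The emptiest bin lay on chromosome 8 from 5 to 10 Mb, with 117 summits. The next was the bin from 30 to 35 Mb on chromosome 10, with 127 summits. A second bin of chromosome 8, from 40 to 45 Mb, held 133 summits, and the bin from 40 to 45 Mb on chromosome 20 held 135. The first bin of chromosome 7, from 0 to 5 Mb, held 145 summits, and the bins of chromosome 8 from 0 to 5 Mb and from 10 to 15 Mb held 148 each. Completing the 10 lowest counts, chromosome 19 from 35 to 40 Mb held 154 summits, chromosome 25 from 5 to 10 Mb held 166, and chromosome 5 from 5 to 10 Mb held 169. A further bin, chromosome 7 from 10 to 15 Mb, tied with the last of these at 169.

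Peak-poor bins were found on 16 of the 24 chromosomes. Chromosome 8 held 4 of them among its 10 full bins, chromosomes 5 and 17 held 3 each, and chromosomes 2, 7, 20 and 24 held 2 each. The remaining 9 lay singly on chromosomes 10, 11, 13, 16, 18, 19, 22, 23 and 25. Chromosomes 1, 3, 6, 9, 12, 14, 15 and 21 had none. Chromosomes of low density did not all hold many of them. Chromosomes 8 and 10 had the lowest densities over their full bins, 42.8 and 43.6 peaks per Mb, yet 4 bins of chromosome 8 and 1 bin of chromosome 10 passed the limit. Chromosome 18 had the second highest density, 75.5 peaks per Mb, and still held a bin of 184 summits from 10 to 15 Mb.

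Neighbouring bins were merged to see how far the stretches reached. They formed 22 separate stretches, of which 18 were a single bin and 3 were 2 adjacent bins, on chromosome 2 from 45 to 55 Mb, on chromosome 5 from 5 to 15 Mb and on chromosome 17 from 0 to 10 Mb. The longest was on chromosome 8 from 0 to 15 Mb, where 413 peaks lay in 15 Mb. The 37 full bins directly beside a stretch had a median of 281 summits and ran from 191 to 445. Of these flanking bins, 12 reached the median of all other bins, 313.

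Most of the peak-poor bins lay at an intermediate distance from a chromosome end. Of the 27 bins, 22 had their centre between 5 and 15 Mb from the nearest end, 81.5% against 34.4% of the other bins. The end of a chromosome was taken as the end of its last peak, and its start as position 0. Between 5 and 10 Mb, 13 of 48 bins were peak-poor (27.1%, Wilson 95% interval 16.6 to 41.0%). Between 10 and 15 Mb the share was 9 of 48 (18.8%, interval 10.2 to 31.9%). It was 1 of 47 between 15 and 20 Mb (2.13%, interval 0.377 to 11.1%) and 1 of 60 beyond 20 Mb (1.67%, interval 0.295 to 8.86%). Bins centred within 5 Mb of an end were peak-poor in 3 of 39 cases (7.69%, interval 2.65 to 20.3%). The belt from 5 to 15 Mb had higher shares than the parts on either side of it. Toward the end this is uncertain, since the intervals for 5 to 10 and 10 to 15 Mb both overlapped that for bins within 5 Mb. Toward the interior, the interval for 10 to 15 Mb overlapped that for 15 to 20 Mb, whereas the interval for 5 to 10 Mb did not. Bins of 1 chromosome are not independent, and these intervals treat them as if they were.

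**Figure D1:**
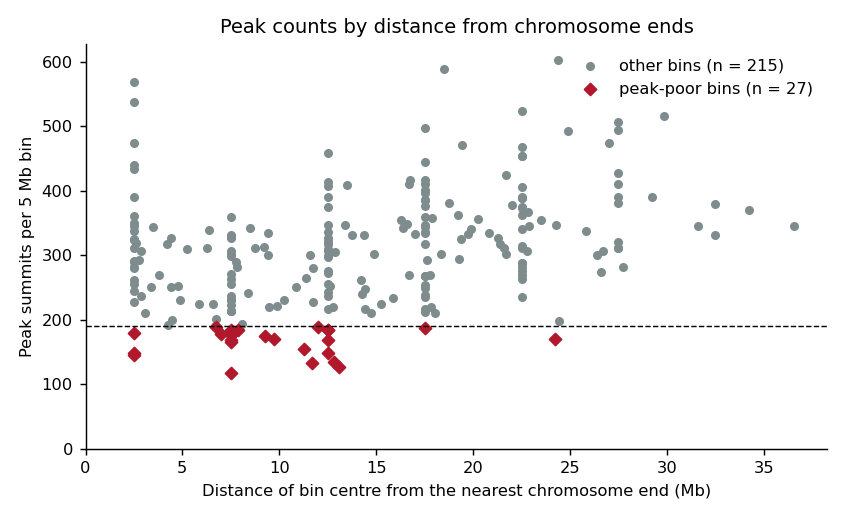
Peak summits in each full 5 Mb bin (y axis) plotted against the distance of the bin centre from the nearest chromosome end in Mb (x axis), with the 27 peak-poor bins as red diamonds, the 215 other bins as grey circles and the limit of 190 as a dashed line. Of the red points, 22 lie between 5 and 15 Mb, 3 lie within 5 Mb and 2 lie beyond 15 Mb.

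The bins beyond 15 Mb were those on chromosome 17 from 15 to 20 Mb, with 187 summits, and on chromosome 5 from 45 to 50 Mb, with 170 summits at 24.2 Mb from the nearest end. In position along the assembly, 15 of the 27 bins lay nearer the start of their chromosome and 12 nearer its end. The second bin of a chromosome, from 5 to 10 Mb, was peak-poor on 7 of 24 chromosomes, the bin from 10 to 15 Mb on 4 and the bin from 15 to 20 Mb on 1. The incomplete last parts of chromosomes, which the rule drops, were looked at by density only. They are shorter than a bin and end at the last peak, so their densities do not show whether a sparse stretch runs into them. Among the 18 of these parts that were at least 1 Mb long, the lowest density was 53.6 peaks per Mb, on chromosome 19, and 0 were at or below 38 per Mb, the density that the limit stands for.

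The 3 peak-poor bins that begin a chromosome had fewer summits at the very tip than the other first bins. The rule counted these summits too, so it fixes this in part. The first 0.5 Mb of chromosome 7 held 9 summits, that of chromosome 17 held 23 and that of chromosome 8 held 33, or 18, 46 and 66 per Mb. In the 21 other first bins the same part had a median of 178 per Mb and no value below 90 per Mb. The remainder of these first bins held 30.2 peaks per Mb on chromosome 7, 34.7 on chromosome 17 and 25.6 on chromosome 8, against a median of 53.8 in the 21 others. On chromosome 7 the tip was thus sparser than the rest of its bin, whereas on chromosomes 8 and 17 it was denser.

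Inside the bins, peaks were spread unevenly, but no 500 kb window was without a summit. Each bin was divided into 10 windows of 500 kb. The 270 windows had a median of 15 summits, with the middle 50% between 10.2 and 21, and 0 were empty. The 2150 windows of the other bins had a median of 29, a difference that the rule on counts entails. Their middle 50% lay between 20 and 41, and 0 of them were empty, so neither trait was particular to the peak-poor bins. In 23 of the 270 windows (8.52%) the count reached 29, and these lay in 15 of the 27 bins. The fullest window, with 56 summits, was the last one of the bin on chromosome 13 from 40 to 45 Mb. In that bin 2 windows held only 5 summits each. The sparsest window, with 1 summit, was the last one on chromosome 17 from 15 to 20 Mb, and the next, with 2, was in the bin on chromosome 19 from 35 to 40 Mb, whose windows began with 36 and 31 summits.

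**Figure D2:**
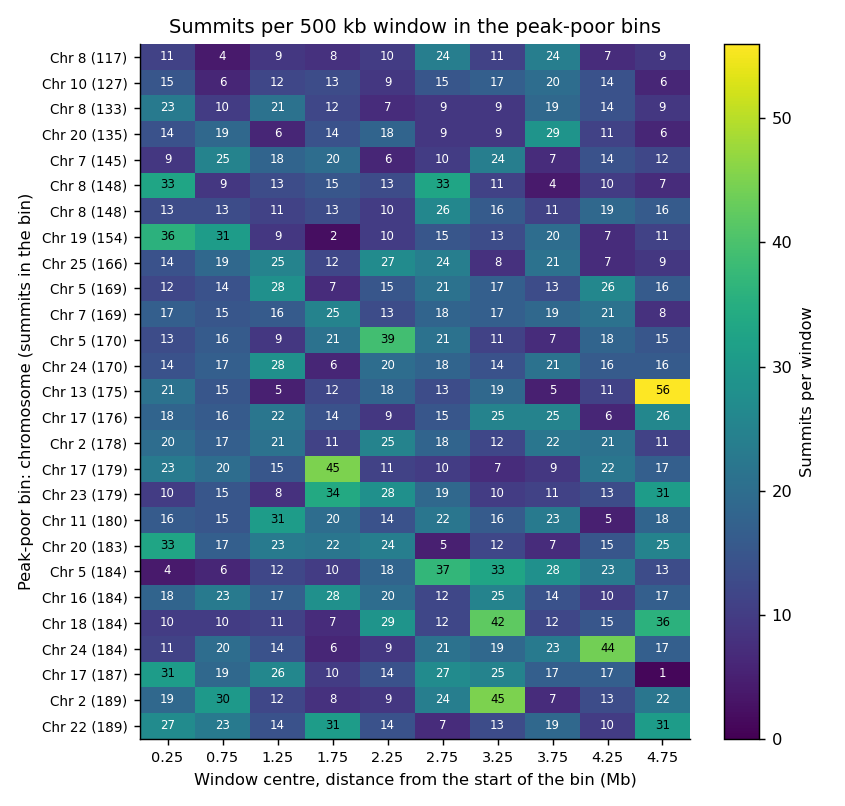
Number of peak summits in each 500 kb window (colour and printed number) of the 27 peak-poor bins, 1 bin per row, labelled by chromosome with the count of the bin in parentheses and ordered by that count, with the window centre as distance from the start of the bin in Mb on the x axis. The middle 50% of windows lie between 10.2 and 21 summits, and a single window of the bin on chromosome 13 holds 56.

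At finer scale the stretches still contained many accessible sites. The differences from the other bins given here follow in large part from the low counts that the rule fixed. Of 13500 bins of 10 kb, 74.8% held no summit and 6.22% held 2 or more, against 58.6% and 15.6% of 107500 such bins elsewhere. Of 1350 bins of 100 kb, 12.8% were empty, against 4.09% elsewhere, and 4.15% held at least 10 summits, against 21.5%. Peaks covered 29.6 kb per Mb in the peak-poor bins and 64.6 kb per Mb in the others. Per bin, covered length ran from 1.88 to 3.62% with a median of 2.99%, and in the other bins from 3.15 to 15.01% with a median of 6.16%.

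Gaps between adjacent peaks were longer, which fewer peaks per bin entail. Gaps were counted where both flanking summits lay in the same bin. Among 4475 gaps in the peak-poor bins the median was 13.1 kb and the 99th percentile 204 kb, against 5.94 and 112 kb among 68974 gaps elsewhere. Gaps of at least 100 kb numbered 282, or 6.30% of the gaps, whereas they were 1.72% of the gaps in all full bins and 1.42% in the other bins. Each of the 27 bins had between 6 and 17 of them, with a median of 10. The 215 other bins had between 0 and 12, with a median of 5, and 205 of them had at least 1. For shares of length, gaps that cross a bin border were included up to that border. Gaps of at least 100 kb then took up 33.3% of the length of the peak-poor bins, from 21.3 to 52.8% per bin, and 13.4% of the length of the others. Outside these gaps the peak-poor bins held 50.0 peaks per Mb and the others 74.3.

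Gap lengths were then divided by the mean spacing of their own bin, 5 Mb over its count. The division does not remove all that the count fixes, since the shortest possible gap and the bin borders do not scale with spacing. On this scale the middle of the distribution was close to that of the other bins, while its ends differed. The median was 0.446 mean spacings against 0.400, and the 90th percentile was 2.51 against 2.39. Gaps of at least 3 mean spacings made up 7.42% against 6.98%, and gaps of at most 0.05 mean spacings made up 15.02% against 13.4%. The 99th percentile was the lower one in the peak-poor bins, 6.65 against 6.95. Gaps of at least 0.0175 mean spacings made up 92.6% in the peak-poor bins and 98.1% in the others. No gap in either set was shorter than 0.26 kb, a length that is a smaller part of a longer mean spacing. In kb the order was the reverse, with 11.2% of gaps under 1 kb in the peak-poor bins and 16.7% in the others.

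**Figure D3:**
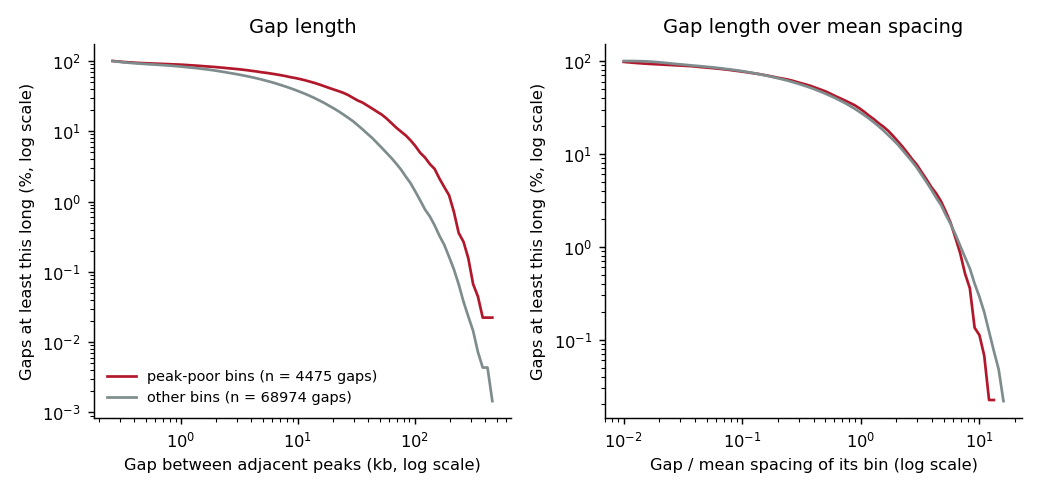
Share of gaps at least as long as the value on the x axis (%, log scale), for 4475 gaps in the peak-poor bins (red) and 68974 in the other bins (grey), with gap length in kb on the left and gap length divided by the mean spacing of the bin on the right, both on log scales. The curves are apart on the left, where the medians are 13.1 and 5.94 kb, and closer on the right, where they are 0.446 and 0.400, with separation at the shortest and the longest gaps.

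The longest gap, 468 kb, was also the longest in all 242 bins. It lay on chromosome 19 from 36618451 to 37086680, between a peak scoring 49 and a peak scoring 113. The next, 368 kb, lay on chromosome 8 from 9575341 to 9943580, and the third, 323 kb, on chromosome 17 from 9328541 to 9651130. A gap of 305 kb was found on chromosome 5 from 14396311 to 14701590, and another of 305 kb on chromosome 8 from 6386151 to 6691350.

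The other 5 of the 10 longest gaps were between 281 and 291 kb. Chromosome 19 held one from 37284581 to 37575690, in the same bin as the longest gap. Chromosome 20 held one from 7731401 to 8021150, and chromosome 13 one from 43696601 to 43980290. Chromosome 8 held the last 2, from 5741471 to 6025420 and from 5234501 to 5515890. The bin of chromosome 8 with 117 summits thus contained 4 of the 10, and the 10 gaps lay in 6 bins. Peaks beside these gaps had scores from 32 to 519. Very long gaps were not confined to peak-poor bins. Of the 50 longest gaps, 13 (26.0%) lay in these bins, which are 11.2% of all full bins, and the rest elsewhere. Bins with few summits have longer gaps, so this excess restates the low counts in part. Gaps that cross a bin border were not ranked. Whether these intervals contain assembled sequence throughout was not tested.

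Clusters of accessible sites were also present within the sparse surroundings. Peaks no more than 12500 bp apart were joined into regions, and a region was counted where most of its peaks lay in a peak-poor bin. There were 20 regions of at least 10 peaks, or 14.8 per 100 Mb, against 105 per 100 Mb in the other bins. They occurred in 15 of the 27 bins, with at most 3 in a bin, and 2 of them lay within 1 Mb of a chromosome end. Regions of a single peak made up 58.0% of 2312 regions, against 44.4% of 22342 elsewhere. Of the member peaks, 29.8% stood alone, 46.7% were in regions of 2 to 4 peaks, 17.1% in regions of 5 to 9 and 6.46% in regions of at least 10. In the other bins these shares were 14.3%, 33.0%, 24.2% and 28.4%. Longer spacing alone moves peaks out of large regions at a fixed joining distance, so these shares restate the low counts in part.

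The largest regions held 24 peaks each. The first lay on chromosome 13 from 44841321 to 44940190, with a median score of 316 and a highest score of 2626, and made up 13.7% of the peaks of its bin. The other of 24 peaks was on chromosome 18 from 13087931 to 13182340, with a median score of 195 and no peak above 628. These 2 regions were alike in size but differed in the strength of their peaks.

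Chromosome 8 held 2 regions of 22 peaks, from 355241 to 431120 and from 12830071 to 12888580. The first lay 0.355 Mb from the chromosome start and had peaks of up to 3709, and the second, in only 58.5 kb, had the highest density of the named regions, 376 peaks per Mb. The fifth was on chromosome 23 from 6776671 to 6837090, with 19 peaks and a median score of 222. The bin that held the region on chromosome 13 also contained the gap of 284 kb noted above, which ended less than 1 Mb before it.

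Pooled over regions, peaks in the clusters of the peak-poor bins had a higher median score than clustered peaks elsewhere. The score is the value the authors' caller gave each peak, its scale is not stated in the list, and the lowest value is 20. The 291 member peaks in regions of at least 10 had a median score of 222, and the 19666 such peaks of the other bins one of 154. The peak-poor bins held only 20 such regions, so a few regions weigh heavily on their median. Among the largest of these regions, the medians of single regions ran from 133 to 435. All medians by region size are given for the joining distance of 12500 bp only, and with chromosome 8 included. In regions of 5 to 9 peaks the medians were 136 and 131, in regions of 2 to 4 they were 129 and 118, and for single peaks they were 111 and 105. In each size class the peak-poor bins therefore had the higher median, although over all peaks the medians were 128 and 129. Single peaks, the class with the lowest medians, made up a larger share of the members. Peaks with no other peak within 50 kb on either side numbered 232, or 5.15% of the members, against 1.13% in the other bins. All full bins together had 1016 of them among 73691 peaks. At a fixed distance, fewer peaks per Mb leave more of them alone, so this share restates the low counts in part. The 232 had a median score of 122, against 100 for the 784 such peaks elsewhere, and the highest score among the 232 was 1829.

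Scores were close to those of the other bins over most of their range and lower at the top. The middle 50% of member scores lay between 76 and 280.5, with a median of 128, whereas in the other bins it lay between 78 and 273, with a median of 129. A score of at least 200 was reached by 33.5% of members (Wilson 95% interval 32.1 to 34.9%) and by 33.0% of the peaks in all full bins. A score of at least 500 was reached by 614 members, or 13.6%, against 14.1% of the peaks in all full bins, a share near the background. A score of at least 2000 was reached by 25 members, or 0.555% (interval 0.376 to 0.818%). The share was 1.22% in all full bins and 1.26% in the other bins (1.18 to 1.34%). In the 44 other bins with the fewest summits, 191 to 250, it was 0.997%. The 99th percentile was 1719 in members against 2249 in the other bins. The median score of single bins ran from 99 to 190 with a median of 125, within the range of 99 to 194 in the other bins, whose median was 129. It was below 129 in 16 of the 27 bins, above it in 9 and equal in 2. The highest medians, 190 on chromosome 10 and 180 on chromosome 8 from 5 to 10 Mb, belonged to the 2 bins with the fewest peaks. The lowest, 99, belonged to the first bin of chromosome 7. On chromosome 8 all 4 bins together reached a median of 160, compared with 153 in the other full bins of that chromosome. The near match of the medians depended on this chromosome. Without chromosome 8 they were 123 in members and 129 in the other bins, and 32.4% against 32.8% scored at least 200.

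Widths differed already at the median. Members had a median width of 690 bp, with the middle 50% between 570 and 940 bp, against 730 bp and 590 to 1040 bp in the other bins. Peaks wider than 1 kb made up 21.3% of members (961 peaks, interval 20.2 to 22.6%), against 26.5% in all full bins and 26.9% in the others. Peaks wider than 2 kb made up 4.22% of members, against 6.25% in all full bins and 6.38% in the others, and peaks wider than 5 kb made up 0.489%, against 0.928% and 0.957%. The median width was lower than the median of the other bins, 730 bp, in 22 of the 27 bins, equal in 2 and higher in 3. In 19 of them it lay below 710 bp, the lower quartile of the other bins, yet the ranges overlapped, from 620 to 750 bp against 660 to 910 bp. The narrowest bins were those on chromosome 13 from 40 to 45 Mb, at 620 bp, and on chromosome 20 from 40 to 45 Mb, at 640 bp.

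**Figure D4:**
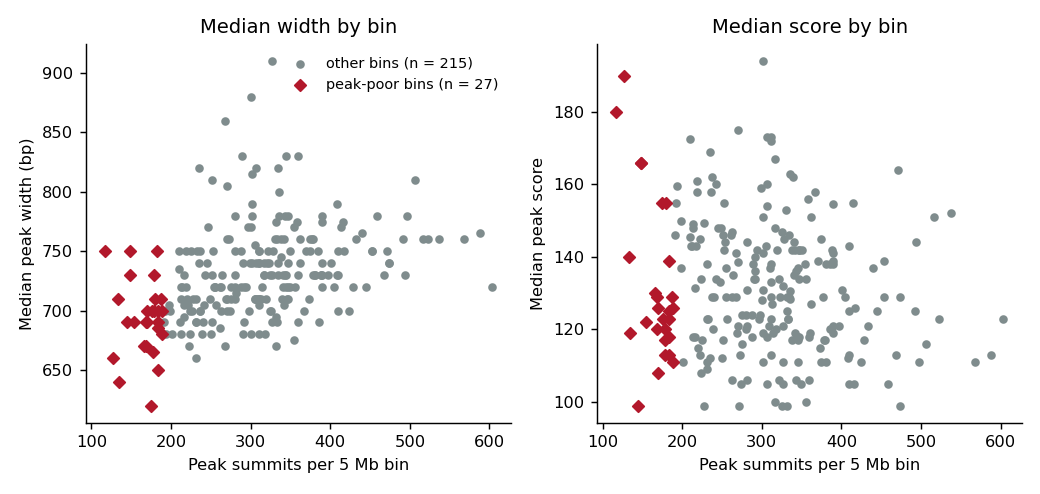
Median peak width in bp (left) and median peak score (right) of each full 5 Mb bin, against the number of summits in the bin, with the 27 peak-poor bins as red diamonds and the 215 other bins as grey circles. Widths of the red points lie between 620 and 750 bp, toward the low side of the grey points, whereas their scores, from 99 to 190, span the range of the others.

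The same comparison was made within each chromosome. On all 16 chromosomes with a peak-poor bin, the members had a lower median width than the peaks of the other full bins of that chromosome. The medians were 620 and 730 bp on chromosome 13, 670 and 750 bp on chromosome 25, and 730 and 750 bp on chromosome 8. Median scores were lower in the members on 10 of the 16 chromosomes, higher on 4 and equal on 2. On chromosome 10 the members were the stronger ones, with 190 against 137, and on chromosome 19 the weaker ones, with 122 against 145.

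Narrowing was graded with the count rather than set off at the limit. Median width was 690 bp in the peak-poor bins, 710 bp in the 44 bins with 191 to 250 summits, 730 bp in the 42 bins with 251 to 300, and 750 bp in the 32 bins with more than 400. Median scores over the same groups were 128, 135, 129 and 124. Scores of at least 2000 were reached by 0.555, 0.997, 1.46 and 1.02% of their peaks. In the groups with 301 to 350 and 351 to 400 summits this share was 1.57 and 0.966%, so it did not rise steadily with the count. Across the 242 bins Spearman's rho with the count was 0.474 for median width and -0.132 for median score, and among the 27 bins alone it was -0.00447 for width and -0.348 for score. Bins share a library and neighbouring bins share a chromosome, so these values are descriptions. The members of all 27 bins were also set against only the 74 other bins centred between 5 and 15 Mb from an end. The medians were 690 against 730 bp, and 21.3% against 26.5% of peaks were wider than 1 kb. The members themselves were not limited to that distance, so this comparison is not matched for distance.

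Splitting the peaks into classes showed which kinds were scarcest. By score, density in the peak-poor bins was between 50.1 and 58.4% of that in the other bins in all 5 classes with an open top class of at least 500, around the 51.8% for all peaks. The class with scores from 20 to 49 had 58.4% (95% interval 52.6 to 64.8%), and the class with scores of at least 500 had 50.1% (46.2 to 54.3%). Within that top class the ratio was lower for the highest scores, 43.2% for scores of at least 1000 (37.4 to 49.8%) and 22.9% for scores of at least 2000 (15.4 to 33.9%). By width, the ratio declined from class to class. It was 60.5% for peaks of at most 600 bp (57.4 to 63.7%), 52.6% for those up to 1 kb, 43.3% for those up to 2 kb and 34.3% for wider ones (29.6 to 39.6%). The intervals of the narrowest and the widest class did not overlap. They treat peaks as independent, which peaks of 1 bin or 1 cluster are not, so they are too narrow to serve as a test.

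**Figure D5:**
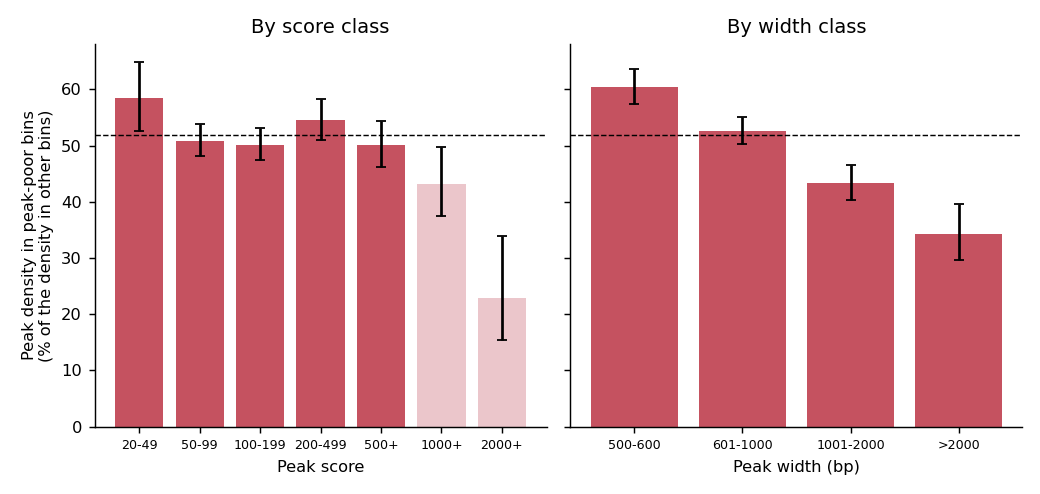
Peak density in the 27 peak-poor bins as a percentage of the density in the 215 other bins, by peak score (left) and peak width in bp (right), with bars from 0, error bars for the 95% interval derived from the Wilson interval of the share of peaks and a dashed line at 51.8%, the value for all peaks. Solid score bars stay between 50.1 and 58.4%, the pale bars for the subsets of the top class scoring at least 1000 and 2000 stand at 43.2 and 22.9%, and the width bars decline from 60.5 to 34.3%.

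Among the classes computed, the lowest ratio was that of peaks both strong and wide. Peaks scoring at least 1000 and wider than 2 kb numbered 21 in the peak-poor bins, or 15.6 per 100 Mb, against 998 or 92.8 per 100 Mb elsewhere, a density of 16.8% (interval 10.9 to 25.7%). Compact peaks of the same strength, at most 1 kb wide, numbered 107, or 79.3 per 100 Mb, against 111 per 100 Mb, a density of 71.3% (58.5 to 86.9%). The ratio for all peaks was 51.8%. Strong and wide peaks were thus a smaller share of members than of other peaks, 0.466% against 1.44%. Strong and compact peaks were a larger share, 2.38% against 1.73%. Per bin, the strong and wide peaks had a median of 1 and at most 3 in the peak-poor bins, 12 of which had none. In the other bins they had a median of 4, and 16 of 215 had none. A single bin on chromosome 15 from 5 to 10 Mb held 60 of them, and without it the density elsewhere was 87.7 per 100 Mb. Strong and compact peaks were present in all 27 peak-poor bins, with a median of 4, against 5 in the others.

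Strong members were therefore narrower than strong peaks elsewhere. Among peaks scoring at least 1000, the median width was 950 bp for members and 1320 bp for the 3670 peaks elsewhere, and 46.2% against 67.4% were wider than 1 kb. For scores from 20 to 49 the medians were 580 and 590 bp, and for scores of at least 100 but below 200 they were 720 and 760 bp. The difference in width thus grew with the score. Without peaks scoring at least 10000, the medians of strong peaks were 930 and 1290 bp. With them, the 44 bins with 191 to 250 summits stood between, at 1150 bp, and the groups of fuller bins had 1280 to 1400 bp.

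Strong peaks were narrower within every class of region size. Standing alone, they had a median width of 895 bp in the peak-poor bins (30 peaks) and 1010 bp elsewhere (218 peaks). In regions of at least 10 peaks the medians were 1140 bp (32 peaks) and 1510 bp (1805 peaks). Over all scores the widths within these classes were closer, 650 and 660 bp for single peaks and 790 and 800 bp in regions of at least 10. In regions of at least 10, 35.7% of members and 34.6% of other peaks were wider than 1 kb, so members were not narrower by this share. It was lower in members for single peaks (14.1% against 16.6%), regions of 2 to 4 (23.0% against 24.6%) and regions of 5 to 9 (24.0% against 27.1%).

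Scores of at least 10000 were found for 5 members in 3 bins, or 3.70 per 100 Mb against 12.1 per 100 Mb elsewhere. Their share, 0.111% of members, had an interval of 0.0474 to 0.26% that includes the 0.183% of all full bins. They held 30.8% of the summed score of the members. The highest, 228582, was a peak of 1.88 kb on chromosome 20 from 6460651 to 6462530. The same bin held a peak of 6.03 kb scoring 23530, from 7391481 to 7397510. On chromosome 8 there was a pair, from 44390661 to 44399250 with a score of 133460 and from 44401011 to 44407670 with a score of 33687, with widths of 8.59 and 6.66 kb and a gap of 1.76 kb between them. The fifth, scoring 97639, lay on chromosome 5 from 47140361 to 47144360 and was 4.0 kb wide.

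The widest member was the first peak of the pair on chromosome 8, and the second of the pair was also among the 5 widest. Between them in width stood a peak of 8.11 kb on chromosome 13 from 44874591 to 44882700, with a score of 1284, and a peak of 7.91 kb on chromosome 16 from 46654251 to 46662160, with a score of 469. The remaining one, 6.46 kb, was on chromosome 8 from 384921 to 391380, with a score of 1686. The peaks on chromosome 13 and on chromosome 8 near its start belonged to the regions of 24 and 22 peaks described above. Wide members were thus of both kinds, a few with extreme scores and others with scores below 2000. The widest peak of the other bins reached 97.0 kb, while no member exceeded 8.59 kb. A maximum tends to rise with the number of peaks, which was 69189 in the other bins and 4502 in the peak-poor bins. The 99th percentiles of width were closer, 4911 bp in the other bins and 3940 bp in the members.

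Scores of adjacent peaks were related most where the peaks were close. Among 501 pairs of members less than 1 kb apart Spearman's rho was 0.382, and among 807 pairs at least 50 kb apart it was 0.0612, against 0.326 and 0.0365 in the other bins. Over all 4475 adjacent pairs it was 0.0979, against 0.135. Pairs less than 1 kb apart made up 11.2% of adjacent pairs in the peak-poor bins and 16.7% in the others. The peaks behind these correlations share libraries and depth. Within members, wider peaks had higher scores, with a rho of 0.328, against 0.377 in the other bins.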

How the data were processed

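ATAC-seq libraries from 2 biological replicates of 4 hpf embryos were mapped to Zv10 by the authors (Novoalign, version 3.8 in the submitters' processing notes), and reads with several matches were placed at random. Technical replicates were merged with SAMtools. Peaks were called by the authors on fragments of 30 to 120 bp with a cutoff of 2, using a MACS wrapper for several replicates, which were scaled to the depth of the smaller one. The deposited list gives, for each peak, a position, a summit and a score of unnamed scale, and its fold, p-value and q-value columns hold 0. It keeps no read counts, so depth is unknown. The methods give a nodup setting while the peak names say nodedup, so whether duplicate reads were removed, which would change the scores, is uncertain.

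Summits were counted here in bins of 5 Mb from position 0. Chromosome length was taken as the end of the last peak. Starts are printed counted from 1. Named places were the 10 bins with the fewest summits, the 10 longest gaps, the 5 largest regions, and the 5 strongest and 5 widest peaks, while other places named in the text were chosen after their values were seen. The members and classes were chosen with earlier results of these data known. Classes of strong peaks by width and the groups of bins by count were added after the values were seen. Genes, motifs and sequences were planned only for an annotation or genome of Zv10, which was not used here. Counting of bins, gaps and regions was tested on simulated data. Python 3.11.15, pandas 2.3.3, numpy 2.4.6 and scipy 1.17.1 were used.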

Additional observations from a re-analysis of the deposited data

How the results depend on the processing

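Under other settings 6 values moved, and 33 stayed within 1.5 times the reported count or inside the counting interval of the reported share. With a limit of 170 summits there were 13 bins with 1951 peaks, all 13 among the 27. Regions of at least 10 peaks numbered 6 when joined within 5 kb and 74 when joined within 25 kb, against 32.7 and 171 per 100 Mb elsewhere, and their density in the peak-poor bins was 4.44 and 54.8 per 100 Mb. With bins from 2.5 Mb, 35.7% of members scored at least 200, against 32.8% in the other bins, and the median score was 135 against 128, the reverse order of the 128 and 129 reported. Without chromosome 8 the median score was 123 in members against 129 in the other bins. Windows of 1 Mb reached the median of the other bins in 4.44% of cases. The causes were not tested. The number of bins was between 21 and 35 under the settings other than the limit of 170. The share between 5 and 15 Mb from an end was 74.3 to 81.5%, and the share wider than 1 kb was 20.8 to 21.2% under the alternatives run. Leaving out chromosome 8, and the further settings for the regions, the density classes and the distances, were chosen after seeing the data. No paired analysis was possible because the list merges the only group's 2 replicates, and for the same reason no replicate could be omitted. Sites too weak to be called at the unknown depth are not part of any count.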
